A study of Mus musculus with 12 samples.

Results

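The 31 genes described here encode enzymes of sterol and fatty acid synthesis and the regulators that set their transcription. They were taken by name as a list of sterol regulatory element-binding protein (SREBP) pathway genes. The list was chosen with earlier results of these data known, so its shares beside those of all tested genes are only descriptive. All 31 were among the 55536 genes of the deposited count table, and all 31 passed the filter on low counts that left 14499 genes tested. The list holds 7 genes of the mevalonate pathway, 11 genes of the steps from farnesyl diphosphate to cholesterol, 5 genes for SREBPs, their control, and sterol transport, and 8 genes of fatty acid synthesis, desaturation, and elongation. The samples were RNA-seq libraries of C2C12GFP cells, a mouse myoblast line expressing green fluorescent protein, grown without a coating (Control) or on fibronectin, Collagen I, or Geltrex™, a basement membrane extract made up mainly of laminin, Collagen IV, and entactin. Each of the 4 groups had 3 samples, no sample carried another allele or drug, and the study asked whether the coating shifts the fiber type that the cells differentiate into. The study's methods describe a switch from growth medium to a low-serum differentiation medium for all groups, and the time at which RNA was taken is not given in the sources used here. The labels do not say that the 3 samples of a group came from separate cultures, so p-values measure only the spread between these samples, which may be technical.

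Cells build cholesterol from acetyl-CoA by way of mevalonate, farnesyl diphosphate, and squalene, and they build fatty acids from acetyl-CoA by way of malonyl-CoA. SREBPs, encoded by *Srebf1* and *Srebf2*, are made as membrane proteins of the endoplasmic reticulum, where the sterol sensor *Scap* binds them and *Insig1* retains the complex when sterols are plentiful. When sterols are low, the complex moves to the Golgi apparatus, the factor is cut free, and it activates the genes of both routes, with SREBP-2 tied more to sterols and SREBP-1 more to fatty acids. Dividing myoblasts need both products for new membrane, and fusing myoblasts remodel the membrane they have.

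Total counts per sample lay between 22520404 and 27351766. Levels are CPM, the counts of a gene scaled to the total of its library, after TMM normalization, comparisons used edgeR's quasi-likelihood test on the counts with Benjamini-Hochberg adjustment over all 14499 genes, and a gene was called higher or lower at an adjusted p of at most 0.05. Errors of CPM are SDs over 3 samples, and errors of log2 fold changes are SEs of the model. The Geltrex™ samples differed from each other more than sampling noise, with a chi-square per degree of freedom of 2.15 to 4.39, but far less than the samples of other groups, at 7.49 to 62.9. Their biological coefficient of variation was 3.76%, compared with 11.4% in Control, 12.2% in Collagen I, and 11.5% in fibronectin samples. Calls of the 31 genes that involve Geltrex™ are therefore also given with the Geltrex™ samples summed into 1. All 12 samples were fitted together, so the Geltrex™ samples also enter the spread used for comparisons without them. The summed level of 5 myoblast markers was 1188 to 1921 CPM over the 12 samples, with mean levels of *Myod1*, the factor that commits cells to muscle, from 107 to 126 CPM in the 4 groups. Of these 5 markers, *Des* and *Cdh15* were lower than Control on fibronectin, and *Des* and *Myod1* on Geltrex™, where neither was called with the Geltrex™ samples summed (adjusted p = 0.233 and 0.367). Of all tested genes, 14.7% were lower than Control on fibronectin and 16.6% on Geltrex™. In bulk RNA, fewer cells of a type and less RNA per cell cannot be told apart.

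The fibronectin group had the highest mean level for 23 of the 31 genes, and the Collagen I group had the lowest mean level for 22. Over all genes tested, fibronectin was the highest group for 28.6% and Collagen I the lowest group for 27.0%. The order was not the same for every role. Relative to Control, 20 genes, from all 4 roles, were higher on fibronectin (17.1% of all tested genes were) and 2 were lower (14.7% were). On Collagen I, 6 genes of the mevalonate, sterol, and fatty acid steps were lower (0.917% of all tested genes were). With 1 sample left out, 3 to 11 genes were called there. On Geltrex™, 8 mevalonate and sterol genes were lower (16.6% of all tested genes were) and 4 fatty acid genes were higher (16.4% of all tested genes were), and with the Geltrex™ samples summed into 1 only 4 of the lower genes were called. With edgeR, the genes of SREBP-1, SREBP-2, and SCAP themselves were called in none of the 6 comparisons. DESeq2 called *Srebf2* higher on Geltrex™ than in Control. The plot of CPM relative to the Control mean shows each gene in each sample.

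**Figure D1:**
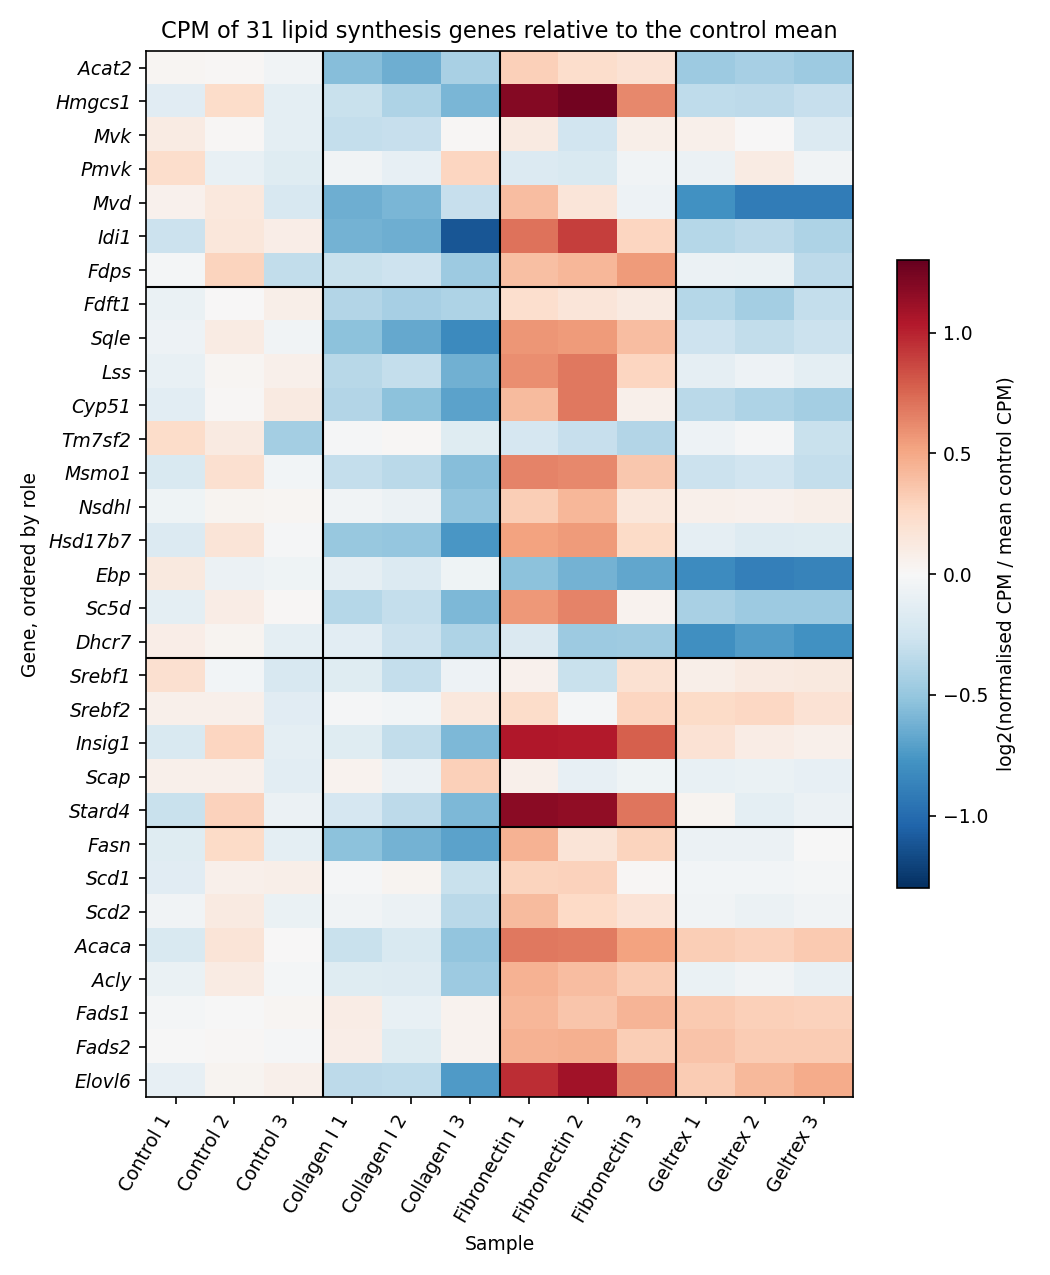
Color shows log2 of normalized CPM over the Control mean for 31 genes (rows, in order of role, black lines between roles) in 12 samples (columns, 3 for each of 4 groups), red above and blue below the Control mean. The fibronectin columns are mostly red, except for *Ebp*, *Dhcr7*, and a few genes near 0, the Collagen I columns are mostly blue, and the Geltrex™ columns are blue for most mevalonate and sterol genes and red for *Acaca*, *Fads1*, *Fads2*, and *Elovl6*.

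Promoter windows are shown for the 3 genes with the largest increase on fibronectin that have a window (*Hmgcs1*, *Insig1*, and *Elovl6*) and for the 2 genes that fell there (*Ebp* and *Dhcr7*), so that the rising and falling genes can be compared. The sequences are from RefSeq (GRCm38.p6), read 5′ to 3′ on the gene's strand from 250 bases before the annotated start to 30 bases after it. Capitals mark the CCAAT box, on either strand, and the SRE-like sequence TCACNCCAC. The windows are chr13:119690101-119690380 (+) for *Hmgcs1*, chr5:28071162-28071441 (+) for *Insig1*, chr3:129532136-129532415 (+) for *Elovl6*, chrX:8193483-8193762 (-) for *Ebp*, and chr7:143822917-143823196 (+) for *Dhcr7*, of which the first listed start is shown.
Hmgcs1: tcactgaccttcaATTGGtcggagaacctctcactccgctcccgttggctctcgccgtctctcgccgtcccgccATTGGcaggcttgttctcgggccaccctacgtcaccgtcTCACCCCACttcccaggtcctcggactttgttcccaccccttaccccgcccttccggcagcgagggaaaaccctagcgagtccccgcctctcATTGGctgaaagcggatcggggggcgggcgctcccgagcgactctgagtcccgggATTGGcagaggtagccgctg
Insig1: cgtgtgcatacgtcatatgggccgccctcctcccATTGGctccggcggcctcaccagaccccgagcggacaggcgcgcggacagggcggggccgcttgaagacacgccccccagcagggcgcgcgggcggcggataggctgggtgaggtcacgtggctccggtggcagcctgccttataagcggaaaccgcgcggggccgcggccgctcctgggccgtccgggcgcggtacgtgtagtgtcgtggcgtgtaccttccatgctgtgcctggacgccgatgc
Elovl6: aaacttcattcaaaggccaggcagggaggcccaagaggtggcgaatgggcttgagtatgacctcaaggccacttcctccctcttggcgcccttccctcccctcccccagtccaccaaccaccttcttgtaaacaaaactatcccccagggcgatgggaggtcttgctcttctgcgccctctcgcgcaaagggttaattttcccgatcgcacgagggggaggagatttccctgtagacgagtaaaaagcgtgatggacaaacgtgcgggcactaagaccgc
Ebp: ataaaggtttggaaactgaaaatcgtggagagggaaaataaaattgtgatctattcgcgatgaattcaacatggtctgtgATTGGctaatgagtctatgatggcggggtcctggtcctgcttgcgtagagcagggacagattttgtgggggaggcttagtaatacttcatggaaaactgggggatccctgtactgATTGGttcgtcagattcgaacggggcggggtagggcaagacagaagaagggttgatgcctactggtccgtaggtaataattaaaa
Dhcr7: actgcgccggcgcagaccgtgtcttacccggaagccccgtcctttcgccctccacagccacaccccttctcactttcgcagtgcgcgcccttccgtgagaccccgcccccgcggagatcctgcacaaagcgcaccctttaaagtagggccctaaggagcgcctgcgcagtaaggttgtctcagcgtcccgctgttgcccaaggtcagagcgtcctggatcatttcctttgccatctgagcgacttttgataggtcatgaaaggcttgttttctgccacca

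The *Hmgcs1* window held the SRE-like sequence at -137 and CCAAT boxes at -237, -176, -45, and 11, with positions counted from the start site. The *Insig1* window held 1 CCAAT box at -216 and the E-box CACGTG at -101, and *Ebp*, which fell on fibronectin, held CCAAT boxes at -170 and -55. The printed windows of *Elovl6* and *Dhcr7* held neither marked sequence, and another *Dhcr7* start held CCAAT at -85 and -49. Windows were at hand for 24 of the 31 genes. Within 250 bases before to 50 bases after a start, CCAAT on either strand was found for 19 of these 24 genes (79.2%), compared with 43.2% of the 10312 tested genes with a window and 41.1% of all 27025 genes with one. The GC box GGGCGG, on either strand, was found for 20 genes (83.3%, against 67.4% and 38.2%), and CACGTG, which reads the same on both strands, for 5 genes (20.8%, against 11.6% and 8.09%). TCACNCCAC, on either strand, was found for *Hmgcs1* alone (4.17%, against 1.4% and 1.44%). No other SRE-like pattern was searched, so the windows without this sequence may hold other forms of the element. None of the 4 motifs contains another. A match is a description of the window and was not tested for use in these cells.

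The mevalonate pathway begins with *Acat2*, the cytosolic thiolase that joins acetyl-CoA units, and *Hmgcs1*, which makes HMG-CoA. *Acat2* was at 90.5, 89.6, and 85.9 CPM in the Control samples, 60.6, 56.9, and 66.0 CPM on Collagen I, 109.9, 104, and 101 CPM on fibronectin, and 63.7, 65.9, and 63.8 CPM on Geltrex™. For *Hmgcs1*, the Control samples had 362, 473, and 366 CPM, the Collagen I samples 328, 303, and 265 CPM, the fibronectin samples 915, 952, and 616 CPM, and the Geltrex™ samples 318, 317, and 324 CPM. All 3 fibronectin samples were above all other samples for both genes, although fibronectin 3 was well below the other fibronectin samples for *Hmgcs1*. *Mvd*, a decarboxylase, forms isopentenyl diphosphate, which *Idi1* isomerizes and *Fdps* joins into farnesyl diphosphate. The level of *Mvd* was 29.2, 30.8, and 24.3 CPM in Control, 18.2, 18.6, and 22.9 CPM on Collagen I, 37.0, 31.4, and 26.9 CPM on fibronectin, and 16.3, 14.9, and 14.9 CPM on Geltrex™. The Geltrex™ samples were the lowest of the 12 for *Mvd*, and the fibronectin samples overlapped with Control. *Idi1* was at 60.6, 81.5, and 78.0 CPM in the Control samples, 47.9, 47.3, and 33.9 CPM on Collagen I, 120, 137, and 88.9 CPM on fibronectin, and 56.6, 58.0, and 55.6 CPM on Geltrex™. For *Idi1* the fibronectin samples were the highest, and all Collagen I samples lay below all Geltrex™ samples. For *Fdps*, the Control samples had 6.88, 8.55, and 5.61 CPM, the Collagen I samples 5.72, 5.83, and 5.05 CPM, the fibronectin samples 9.21, 9.46, and 10.3 CPM, and the Geltrex™ samples 6.66, 6.59, and 5.55 CPM. The fibronectin samples were above the rest for *Fdps*, at low levels. The kinases between these steps, *Mvk* and *Pmvk*, were called in no comparison, with samples from 14.9 to 20.0 CPM for *Mvk* and from 12.2 to 17.0 CPM for *Pmvk*.

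The sterol-specific steps begin with *Fdft1*, squalene synthase, *Sqle*, the epoxidase that is a second control point of the route, and *Lss*, which closes the ring to lanosterol. The level of *Fdft1* was 273, 292, and 305 CPM in Control, 223, 215, and 219 CPM on Collagen I, 336, 324, and 313 CPM on fibronectin, and 225, 214, and 234 CPM on Geltrex™. *Sqle* was at 388, 435, and 393 CPM in the Control samples, 281, 255, and 228 CPM on Collagen I, 601, 595, and 534 CPM on fibronectin, and 337, 325, and 335 CPM on Geltrex™. For *Lss*, the Control samples had 85.1, 92.8, and 94.95 CPM, the Collagen I samples 70.6, 73.2, and 59.1 CPM, the fibronectin samples 138, 146, and 110.3 CPM, and the Geltrex™ samples 83.8, 87.2, and 83.3 CPM. For these 3 genes the order of the groups was fibronectin above Control and Collagen I at or near the bottom. No sample of fibronectin overlapped with a sample of Control, and Collagen I and Geltrex™ overlapped for *Fdft1* but not for *Sqle* or *Lss*. *Cyp51* removes a methyl group of lanosterol, and *Msmo1*, *Nsdhl*, and *Hsd17b7* remove the remaining ones. The level of *Cyp51* was 264, 293, and 314 CPM in Control, 223, 200.1, and 179 CPM on Collagen I, 385, 468, and 304 CPM on fibronectin, and 227, 220.3, and 214 CPM on Geltrex™. *Msmo1* was at 209, 277, and 236 CPM in the Control samples, 194, 188, and 164 CPM on Collagen I, 376, 371, and 307 CPM on fibronectin, and 198, 203, and 195 CPM on Geltrex™. Fibronectin 3 lay within the range of the Control samples for *Cyp51* and above them for *Msmo1*. For *Nsdhl*, the Control samples had 107, 114, and 113 CPM, the Collagen I samples 108, 105, and 77.8 CPM, the fibronectin samples 139, 149.8, and 123 CPM, and the Geltrex™ samples 117, 116, and 117 CPM. The level of *Hsd17b7* was 107, 135, and 119 CPM in Control, 85.7, 85.1, and 71.4 CPM on Collagen I, 173, 177, and 144 CPM on fibronectin, and 111, 107, and 108 CPM on Geltrex™. Collagen I 3 was the lowest of the 12 samples for both *Nsdhl* and *Hsd17b7*. *Ebp*, *Sc5d*, and *Dhcr7* shift and add double bonds and carry out the final reduction to cholesterol. *Ebp* was at 61.8, 53.6, and 54.4 CPM in the Control samples, 52.2, 49.9, and 54.6 CPM on Collagen I, 39.0, 37.0, and 35.5 CPM on fibronectin, and 32.1, 30.5, and 31.1 CPM on Geltrex™. For *Sc5d*, the Control samples had 81.3, 94.9, and 89.5 CPM, the Collagen I samples 68.2, 71.4, and 59.2 CPM, the fibronectin samples 131, 139, and 91.6 CPM, and the Geltrex™ samples 65.9, 63.9, and 63.8 CPM. The level of *Dhcr7* was 49.0, 47.0, and 42.1 CPM in Control, 42.0, 38.0, and 35.0 CPM on Collagen I, 40.4, 33.1, and 33.4 CPM on fibronectin, and 26.5, 27.9, and 26.7 CPM on Geltrex™. *Ebp* and *Dhcr7* were on average highest in Control and lowest on Geltrex™, with all fibronectin samples below all Control samples, while *Sc5d* was highest on fibronectin, with fibronectin 3 inside the Control range. *Tm7sf2*, a sterol reductase, was called in no comparison and ranged from 4.29 to 6.88 CPM.

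Among the regulators, *Insig1*, itself an SREBP target, and *Stard4*, which carries cholesterol between membranes, changed with the coating. *Insig1* was at 178, 248, and 186 CPM in the Control samples, 183, 163, and 136 CPM on Collagen I, 421, 418, and 350.1 CPM on fibronectin, and 232, 219, and 214 CPM on Geltrex™. For *Stard4*, the Control samples had 49.7, 74.8, and 57.4 CPM, the Collagen I samples 52.1, 47.9, and 40.6 CPM, the fibronectin samples 137, 135, and 98.3 CPM, and the Geltrex™ samples 62.0, 55.6, and 57.5 CPM. All fibronectin samples were above all other samples for both genes, and Control 2 was the highest of the other 9. *Srebf2* ranged from 299 to 402 CPM and *Srebf1* from 41.4 to 59.4 CPM over the 12 samples, and *Scap* ranged from 34.1 to 46.5 CPM. For these 3 genes most pairs of groups overlapped.

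In fatty acid synthesis, *Acly* makes cytosolic acetyl-CoA from citrate, *Acaca* carboxylates it, and *Fasn* assembles palmitate. The level of *Acly* was 223, 254, and 232 CPM in Control, 212, 211, and 170.5 CPM on Collagen I, 322, 313, and 296 CPM on fibronectin, and 222, 229, and 221 CPM on Geltrex™. *Acaca* was at 113, 145, and 129.5 CPM in the Control samples, 105, 113, and 90.3 CPM on Collagen I, 207, 207, and 185 CPM on fibronectin, and 161, 158, and 164 CPM on Geltrex™. For *Fasn*, the Control samples had 219, 289.7, and 223 CPM, the Collagen I samples 169, 159, and 150.4 CPM, the fibronectin samples 333, 274, and 299 CPM, and the Geltrex™ samples 231, 231, and 243 CPM. The fibronectin samples were the highest for *Acly* and *Acaca*, and for *Fasn* fibronectin 2 fell below Control 2. The Geltrex™ samples stood between fibronectin and Control only for *Acaca*. *Elovl6* lengthens palmitate, *Scd1* and *Scd2* place the first double bond, and *Fads1* and *Fads2* act on polyunsaturated fatty acids. The level of *Elovl6* was 42.3, 46.5, and 47.8 CPM in Control, 35.9, 36.3, and 27.4 CPM on Collagen I, 88.7, 97.0, and 70.5 CPM on fibronectin, and 57.4, 61.1, and 63.5 CPM on Geltrex™. *Fads1* was at 134, 136, and 139 CPM in the Control samples, 146, 127, and 141 CPM on Collagen I, 184, 175, and 186 CPM on fibronectin, and 173, 169, and 168 CPM on Geltrex™. For *Fads2*, the Control samples had 145, 146, and 144 CPM, the Collagen I samples 155, 130.4, and 149.7 CPM, the fibronectin samples 199, 201, and 181 CPM, and the Geltrex™ samples 188, 183, and 183 CPM. For these 3 genes all fibronectin and all Geltrex™ samples were above all Control and Collagen I samples. The level of *Scd1* was 1560, 1808, and 1818 CPM in Control, 1716, 1772, and 1417 CPM on Collagen I, 2118, 2129, and 1751 CPM on fibronectin, and 1682, 1683, and 1703 CPM on Geltrex™. *Scd2* was at 2580, 2883, and 2503 CPM in the Control samples, 2567, 2516, and 2085 CPM on Collagen I, 3522, 3187, and 3012 CPM on fibronectin, and 2574, 2524, and 2569 CPM on Geltrex™. The fibronectin samples overlapped with Control and Collagen I for *Scd1* but not for *Scd2*.

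**Figure D2:**
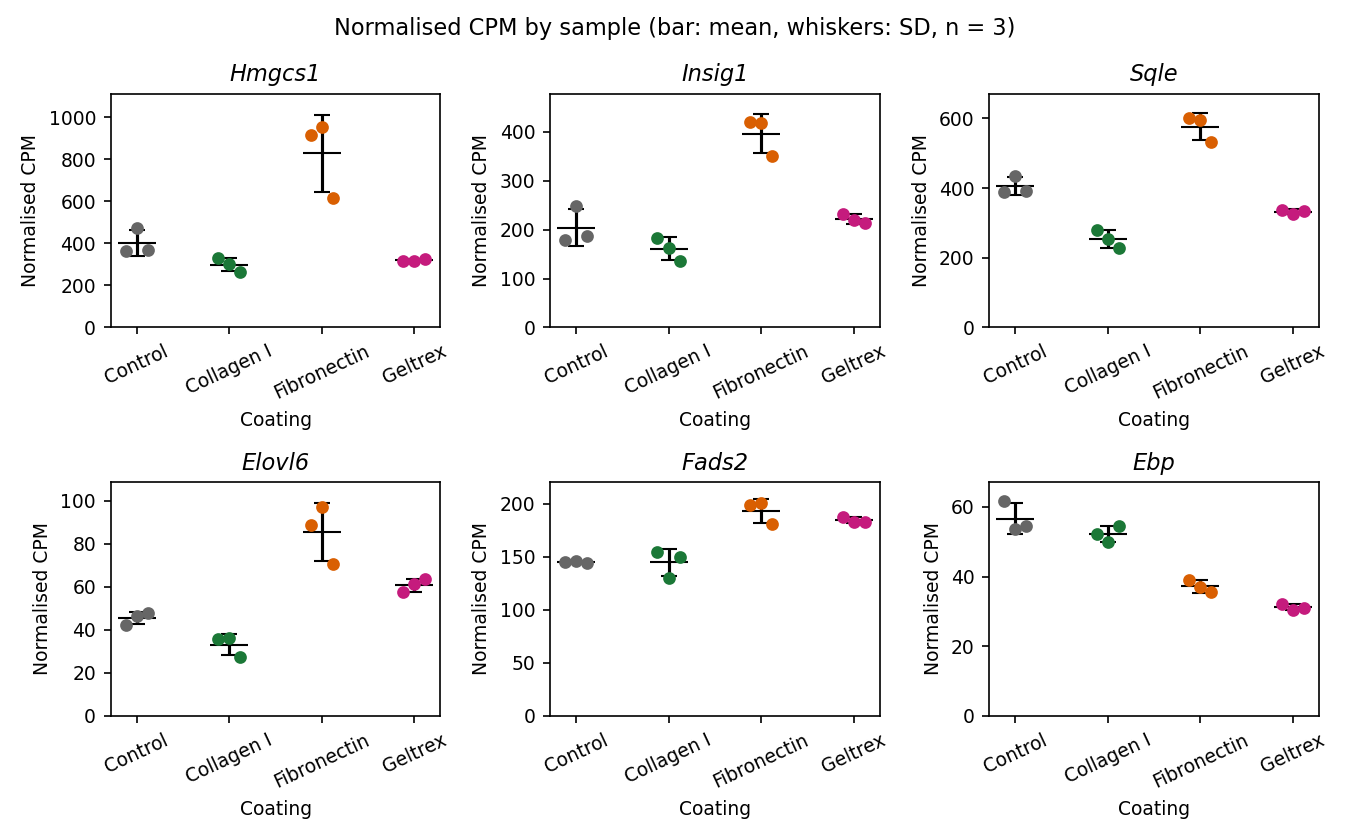
Points show normalized CPM of single samples for 6 genes (y axis from 0, linear, scale differs between panels) by coating (x axis), with the mean as a bar and SD as whiskers (n = 3). The fibronectin samples are the highest for *Hmgcs1*, *Insig1*, *Sqle*, and *Elovl6*, fibronectin and Geltrex™ overlap for *Fads2*, and *Ebp* is lowest on Geltrex™.

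Compared per exon length, as normalized CPM per kilobase (RPKM), the stearoyl-CoA desaturases stood above the rest. *Scd2* was at 486 ± 36.8 RPKM and *Scd1* at 353 ± 29.9 RPKM in Control (SD, n = 3). *Hmgcs1* (87.2 ± 13.7 RPKM), *Sqle* (73.1 ± 4.67 RPKM), and *Fdft1* (68.6 RPKM on average) followed, with overlapping spread between *Sqle* and *Fdft1*. At the low end of the same scale were *Tm7sf2* (1.32 ± 0.31 RPKM), *Fdps* (1.67 ± 0.35 RPKM), and *Scap* (5.03 ± 0.39 RPKM). On fibronectin, *Hmgcs1* reached 180 ± 40.1 RPKM and *Insig1* 128 ± 12.9 RPKM.

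Some counts can be shared with other genes. *Fdft1* overlaps with *Ctsb*, which lies on the opposite strand and was at 918 to 1049 CPM on average in the groups, over 18.3% of its exon bases, and no strand rule is given for the counting, so reads of this overlap cannot be told apart. *Fdps* overlaps with Gm43738 over 26.7% of its exon bases, and the low level of *Fdps* is uncertain, although Gm43738 was at 0.029 CPM or less on average in every group. Of all stretches of 100 bases, 28.9% of those of *Acat2* also occur in *Acat3*, 21.9% of those of *Idi1* in Gm13502, and 23.7% of those of *Acaca* in Gm5182, but these partners were at 1.87 CPM or less on average in every group. *Hmgcs1* shares 12.1% of its exon bases with Gm48342, and *Scap* shares 13.2% with 5830462I19Rik. Reads there are open to the same doubt, although these partners were at 0.132 CPM or less on average in every group. *Tm7sf2* shares 12.1% with *Vps51*, at 11.9 to 15.2 CPM on average. Both lie on the same strand, so a strand rule would not separate their reads.

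On fibronectin relative to Control, genes of each role rose, led by *Hmgcs1*, *Stard4*, and *Insig1*, and 2 late sterol genes fell. *Hmgcs1* went from 400.5 ± 62.9 to 828 ± 184 CPM (SD, n = 3), a log2 fold change of 1.05 ± 0.14 (adjusted p = 5.15e-05). *Stard4* changed by 1.02 ± 0.15 (adjusted p = 7.44e-05) and *Insig1* by 0.96 ± 0.13 (adjusted p = 3.9e-05) on the log2 scale. *Elovl6* followed with 0.91 ± 0.12 (adjusted p = 3.65e-05). Of the 31 genes, 20 were higher and 2 were lower, compared with 17.1% of all tested genes higher and 14.7% lower. The median log2 fold change of the 31 genes was 0.39, and that of all tested genes was -0.02. With a fold change of at least 2, *Hmgcs1* and *Stard4* were called, where 6.66% of tested genes were.

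By role, 4 of 7 mevalonate genes, 7 of 11 sterol genes, 2 of 5 regulators, and 7 of 8 fatty acid genes were higher on fibronectin. In the sterol steps, *Msmo1* rose by 0.55 ± 0.11, *Lss* by 0.53 ± 0.10, and *Sqle* by 0.51 ± 0.09 on the log2 scale. *Ebp* fell by 0.61 ± 0.08 (adjusted p = 3.24e-05) and *Dhcr7* by 0.37 ± 0.10 (adjusted p = 0.00864) on the log2 scale. Both act late in this branch, but *Sc5d*, another gene of the late steps, rose by 0.44 ± 0.12 (adjusted p = 0.0127), so these steps did not fall together. In the mevalonate pathway *Idi1* rose by 0.65 ± 0.15 (adjusted p = 0.00428), and in fatty acid synthesis *Acaca* rose by 0.63 ± 0.10 (adjusted p = 0.000188), *Fads1* by 0.42 ± 0.07, *Fads2* by 0.41 ± 0.08, and *Acly* by 0.39 ± 0.09 on the log2 scale. The genes not called were *Mvk*, *Pmvk*, *Mvd*, *Fdft1*, *Tm7sf2*, *Srebf1*, *Srebf2*, *Scap*, and *Scd1*, with log2 differences from -0.30 for *Tm7sf2* to 0.21 for *Scd1*. The smaller increases of *Acat2*, *Fdps*, *Cyp51*, *Nsdhl*, *Sc5d*, *Fasn*, and *Scd2*, of 0.25 to 0.46 on the log2 scale, each lost the call when certain single samples were left out. *Acat2* lost it without Control 3 (adjusted p = 0.0577) or fibronectin 1 (0.0759), and *Fdps* without Control 1 (0.0758), Control 3 (0.107), or fibronectin 3 (0.0641). *Cyp51* lost it without Control 1 (0.0887), fibronectin 1 (0.0526), or fibronectin 2 (0.13), and *Sc5d* without the same samples (0.0586, 0.0609, and 0.0721). *Fasn* lost it without Control 1 (0.147), Control 3 (0.124), or fibronectin 1 (0.154), and *Scd2* without these (0.0954, 0.0988, and 0.138) or fibronectin 2 (0.0535). *Nsdhl* kept the call only without a Collagen I sample or fibronectin 3, and its adjusted p was otherwise 0.0525 to 0.148. Over all samples left out in turn, 16 to 22 genes were called, with 16 without Control 1 or fibronectin 1. With only the Control and fibronectin samples fitted, *Acat2* (adjusted p = 0.061), *Fdps* (0.0688), *Cyp51* (0.0591), *Fasn* (0.104), and *Scd2* (0.0854) lost the call. Fibronectin 3 was the lowest of its group for 22 of the 31 genes.

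**Figure D3:**
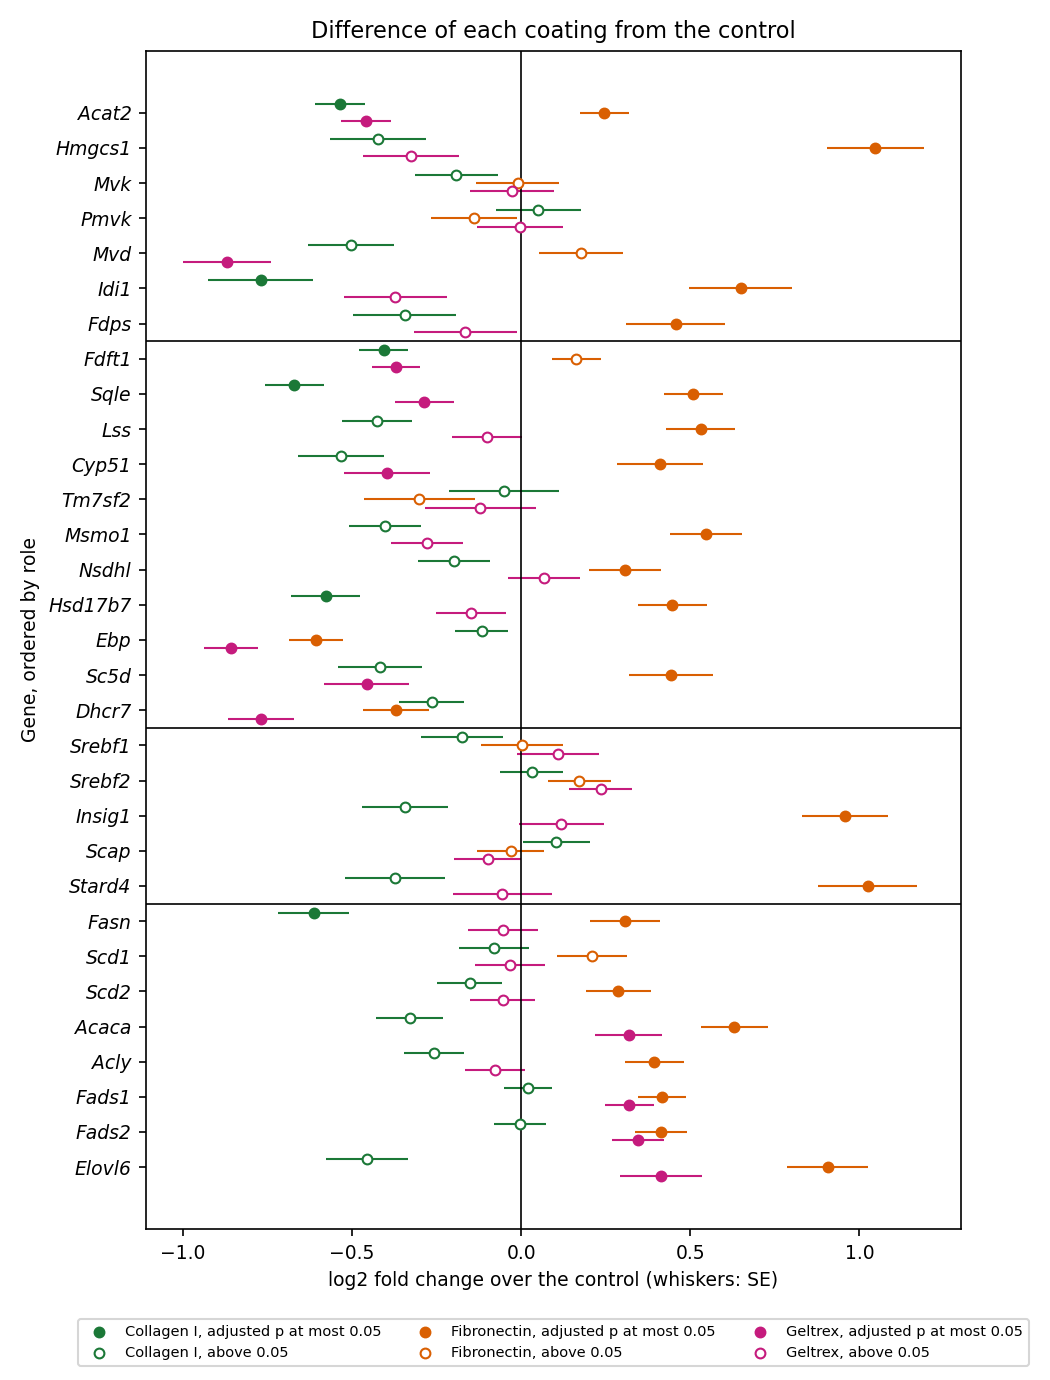
Points show the log2 fold change of each coating over Control (x axis) for 31 genes (y axis, in order of role, black lines between roles), with whiskers of 1 SE, filled where the adjusted p of edgeR's quasi-likelihood test was at most 0.05 and open otherwise. Most fibronectin points lie right of 0, with *Hmgcs1*, *Stard4*, *Insig1*, and *Elovl6* farthest out, and *Ebp* and *Dhcr7* left of it, while the Geltrex™ points lie left of 0 for most sterol genes and right of 0 for *Acaca*, *Fads1*, *Fads2*, and *Elovl6*.

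On Collagen I relative to Control, most of the 31 genes had lower mean levels, and 6 of them were called lower after adjustment. *Sqle* went from 405 ± 25.9 to 254 ± 26.3 CPM (SD, n = 3), a log2 fold change of -0.67 ± 0.09 (adjusted p = 0.0015). *Acat2* fell by 0.54 ± 0.07 (adjusted p = 0.00221) and *Fasn* by 0.61 ± 0.10 (adjusted p = 0.00869) on the log2 scale. *Idi1* fell by 0.77 ± 0.15, *Hsd17b7* by 0.58 ± 0.10, and *Fdft1* by 0.41 ± 0.07 on the log2 scale, with adjusted p-values of 0.0247, 0.012, and 0.0111. These 6 genes were lower, compared with 0.917% of all tested genes, and edgeR called 0 of the 31 higher, compared with 0.2% of tested genes, with 0 at an unadjusted p under 0.05 and 0 with DESeq2. The median log2 fold change of the 31 genes was -0.34, against -0.0031 for all tested genes, and 4 of the 31 were above 0. None of the 31 was called with a fold change of at least 2, where 0.131% of tested genes were.

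The count in this comparison depended on single samples and on the tool. It was 3 without Control 2 or without Collagen I 2, 4 without Control 3, and 11 without fibronectin 3, and the median moved to -0.20 without Control 2, the highest Control sample for 17 of the genes. Without Control 2, *Idi1* had an adjusted p of 0.131, *Hsd17b7* of 0.0707, and *Fdft1* of 0.0516, and without Collagen I 2 *Fasn* had 0.0527. *Idi1* and *Fdft1* also lost the call without Control 3 (0.0878 and 0.0501) or Collagen I 2 (0.0597 and 0.0648), and *Idi1* without Collagen I 3 (0.0614), Geltrex™ 1 (0.0517), or Geltrex™ 2 (0.0504). *Sqle* and *Acat2* stayed called without any 1 sample, with adjusted p-values of at most 0.0123 and 0.0193. With DESeq2, 11 of the 31 were lower, and with only the 2 groups compared, *Sqle* (adjusted p = 0.0356) and *Acat2* (0.049) were. Fewer of the 31 were called with the Geltrex™ samples summed as well, and the cause was not tested.

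On Geltrex™ relative to Control, the mevalonate and sterol genes that were called were lower, and the fatty acid genes that were called were higher. *Ebp* went from 56.6 ± 4.50 to 31.2 ± 0.79 CPM (SD, n = 3), a log2 fold change of -0.86 ± 0.08 (adjusted p = 7.87e-07). *Dhcr7* fell by 0.77 ± 0.10 (adjusted p = 1.93e-05), *Mvd* by 0.87 ± 0.13 (adjusted p = 8.37e-05), and *Acat2* by 0.46 ± 0.07 (adjusted p = 0.000177) on the log2 scale. With these 4, *Sc5d* (-0.46 ± 0.12), *Cyp51* (-0.40 ± 0.13), *Fdft1* (-0.37 ± 0.07), and *Sqle* (-0.29 ± 0.09) were lower on the log2 scale. The 4 genes that rose were *Elovl6* (0.41 ± 0.12, adjusted p = 0.0148), *Fads2* (0.34 ± 0.08, adjusted p = 0.00272), *Fads1* (0.32 ± 0.07, adjusted p = 0.0026), and *Acaca* (0.32 ± 0.10, adjusted p = 0.0213). In all, 8 of the 31 were lower and 4 were higher, compared with 16.6% and 16.4% of all tested genes. The median log2 fold change was -0.10 over the 31 genes, -0.32 over the mevalonate genes, -0.29 over the sterol genes, and 0.14 over the fatty acid genes, against -0.01 for all tested genes. With edgeR, 0 of the 31 passed a fold change of at least 2, where 9.14% of tested genes did.

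With the Geltrex™ samples summed into 1, *Ebp* (adjusted p = 0.000707), *Dhcr7* (0.00573), *Mvd* (0.0103), and *Acat2* (0.0292) stayed lower and no other of the 31 genes was called, with adjusted p-values of 0.0859 for *Fads2*, 0.0889 for *Fads1*, 0.157 for *Elovl6*, and 0.216 for *Acaca*. DESeq2 with all samples called 5 genes higher and 8 lower. The added gene was *Srebf2* (adjusted p = 0.0339), with a log2 fold change of 0.23 ± 0.09 in edgeR (adjusted p = 0.0621). With all samples but 1, *Sqle* lost the call without Control 2 (adjusted p = 0.0944) and *Cyp51* without Control 2 (0.0633) or Control 3 (0.0921). *Acaca* lost it without Control 1 (0.103) or Control 3 (0.0518), and *Elovl6* without Control 1 (0.0588) or Geltrex™ 3 (0.0596). *Sqle*, *Cyp51*, and *Acaca* also lost it without any 1 of the Geltrex™ samples, with adjusted p-values of 0.0512 to 0.0876. Over all samples left out in turn, 8 to 16 genes were called, with 8 without Geltrex™ 3.

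The comparison of Collagen I with fibronectin called the most of the 31 genes of the 6 comparisons. The level of *Hmgcs1* was 828 ± 184 CPM on fibronectin and 299 ± 31.7 CPM on Collagen I (SD, n = 3), a log2 fold change of -1.47 ± 0.14 (adjusted p = 1.37e-06). *Idi1* differed by -1.42 ± 0.16 (adjusted p = 3.94e-06), *Stard4* by -1.40 ± 0.15 (adjusted p = 2.77e-06), *Elovl6* by -1.36 ± 0.12 (adjusted p = 4.98e-07), and *Sqle* by -1.18 ± 0.09 (adjusted p = 6.87e-08) on the log2 scale. Of the 31 genes, 23 were lower on Collagen I, compared with 22.9% of all tested genes, and *Ebp* was higher, with a log2 fold change of 0.49 ± 0.08 (adjusted p = 0.000173), compared with 22.1% of tested genes. The lower genes were 5 of 7 in the mevalonate pathway, 8 of 11 in the sterol steps, 2 of 5 among the regulators, and all 8 fatty acid genes, of which *Scd1* lost the call without Collagen I 3 (adjusted p = 0.137), fibronectin 1 (0.112), or fibronectin 2 (0.104). The median log2 fold change was -0.68, against 0.02 for all tested genes. A fold change of at least 2 was reached by *Hmgcs1*, *Idi1*, *Stard4*, *Elovl6*, *Insig1*, *Sqle*, and *Hsd17b7*, where 8.46% of tested genes reached it. The number called was 23 or 24 without any 1 sample and 24 with DESeq2.

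Between Collagen I and Geltrex™, 5 of the 8 fatty acid genes were lower on Collagen I, and *Mvd* and the late sterol genes *Ebp* and *Dhcr7* were higher. *Elovl6* differed by -0.87 ± 0.12 (adjusted p = 4.67e-05), *Acaca* by -0.65 ± 0.10 (adjusted p = 0.000111), and *Fasn* by -0.56 ± 0.10 (adjusted p = 0.000651) on the log2 scale. *Fads1*, *Fads2*, *Insig1*, *Sqle*, *Lss*, and *Hsd17b7* were also lower on Collagen I, by 0.30 to 0.46 in size. *Ebp* (0.74 ± 0.08, adjusted p = 3.28e-06), *Dhcr7* (0.50 ± 0.10, adjusted p = 0.000949), and *Mvd* (0.37 ± 0.13, adjusted p = 0.0373) were higher on the log2 scale. In total 9 of 31 were lower and 3 higher, compared with 19% and 18.2% of all tested genes, and the median log2 fold change was -0.18, against 0.03. With edgeR, 0 members passed a fold change of at least 2, where 9.32% of tested genes did. With the Geltrex™ samples summed into 1, 3 genes stayed lower and 1 higher. *Lss* and *Mvd* lost the call without Collagen I 3 (adjusted p = 0.0932 and 0.164) or any 1 of the Geltrex™ samples (0.0516 to 0.113).

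Between fibronectin and Geltrex™, sterol and mevalonate genes were higher on fibronectin, and the desaturases *Fads1* and *Fads2* were not called. *Hmgcs1* was higher by 1.37 ± 0.14 (adjusted p = 6.43e-06), *Stard4* by 1.08 ± 0.15 (adjusted p = 8.27e-05), *Mvd* by 1.05 ± 0.13 (adjusted p = 3.22e-05), and *Idi1* by 1.02 ± 0.15 (adjusted p = 0.000211) on the log2 scale, and these 4 passed a fold change of 2, where 3.98% of tested genes did. *Fads1* differed by 0.10 ± 0.07 (adjusted p = 0.366) and *Fads2* by 0.07 ± 0.08 (adjusted p = 0.576) on the log2 scale. Of the 31 genes, 21 were higher on fibronectin, compared with 10.3% of all tested genes, and edgeR called 0 lower, compared with 9.06%, with 0 at an unadjusted p under 0.05 and 0 with DESeq2. The higher genes were 5 of 7 mevalonate genes, 9 of 11 sterol genes, 2 of 5 regulators, and 5 of 8 fatty acid genes. The median log2 fold change was 0.47, against -0.0049 for all tested genes. With the Geltrex™ samples summed into 1, 11 genes stayed higher, namely *Acat2*, *Hmgcs1*, *Mvd*, *Idi1*, *Fdft1*, *Sqle*, *Cyp51*, *Msmo1*, *Sc5d*, *Insig1*, and *Stard4*, none of them a fatty acid gene. *Ebp*, *Dhcr7*, *Fasn*, *Scd2*, and *Acaca* lost the call without fibronectin 1 (adjusted p from 0.0672 to 0.146) and *Elovl6* without Geltrex™ 1 (0.0512). *Ebp*, *Fasn*, *Scd2*, and *Acaca* also lost it without any 1 of the Geltrex™ samples (0.0567 to 0.137), and *Ebp* and *Acaca* without fibronectin 2 (0.0784 and 0.114) or Collagen I 1 (0.0566 and 0.0563).

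Other genes of sterol handling and SREBP release were called as well, at an adjusted p of at most 0.05. On fibronectin relative to Control, *Npc2*, a lysosomal cholesterol carrier, rose by 0.49 ± 0.09 and *Aacs*, which activates ketone bodies for lipid synthesis, rose by 0.42 ± 0.10 on the log2 scale. *Mbtps1* and *Mbtps2*, the proteases that release SREBPs, rose there by 0.32 ± 0.07 and 0.38 ± 0.12 on the log2 scale. *Mbtps2* lost the call without Control 1, fibronectin 1, or fibronectin 2, with an adjusted p of up to 0.137. On Geltrex™, *Soat1*, which esterifies cholesterol, rose by 0.46 ± 0.08 on the log2 scale and kept the call with the Geltrex™ samples summed (adjusted p = 0.0181). *Mbtps1* (0.23 ± 0.07) and *Aacs* (-0.31 ± 0.10) were called there as well, but not with the samples summed (adjusted p = 0.222 and 0.25). On Collagen I, *Aacs* fell by 0.43 ± 0.10 on the log2 scale, with an adjusted p of 0.0443, and lost the call without Collagen I 1, Collagen I 2, or any 1 of the Control or Geltrex™ samples (adjusted p of up to 0.2001).

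Myotube and cell cycle markers moved with the coatings as well. Of all tested genes, 14.7% were lower and 17.1% higher than Control on fibronectin, and 16.6% and 16.4% on Geltrex™. On Collagen I, 0.917% were lower than Control, and 9.06% were lower on fibronectin than on Geltrex™. All 6 myotube markers (*Myog*, *Mymk*, *Ckm*, *Myh3*, *Acta1*, and *Ttn*) were lower than Control on fibronectin, with a median log2 fold change of -2.02, and on Geltrex™, with a median of -1.48. Their summed level was 5691 to 6420 CPM in Control, 5997 to 6749 CPM on Collagen I, 1502 to 1737 CPM on fibronectin, and 2229 to 2622 CPM on Geltrex™. Of 6 proliferation markers, *Mki67*, *Top2a*, *Ccnb1*, *Cdk1*, and *Mcm5* were higher on fibronectin (median over the 6 of 1.57) and on Geltrex™ (1.63), and *Rrm2* had a log2 fold change of -0.70 ± 0.09 on Collagen I (adjusted p = 0.00204). Their summed level was 289 to 333 CPM in Control, 215 to 226 CPM on Collagen I, 643 to 830 CPM on fibronectin, and 672 to 728 CPM on Geltrex™. Between fibronectin and Geltrex™, where 21 of the 31 lipid genes were called, the 6 proliferation markers had a median log2 fold change of 0.03, and the lowest unadjusted p among them in edgeR's quasi-likelihood test was 0.0607, for *Ccnb1*. In the same comparison the myotube markers *Mymk*, *Acta1*, and *Ttn* were lower on fibronectin, of which *Mymk* was not called with the Geltrex™ samples summed (adjusted p = 0.0661). The 6 myotube markers and 5 proliferation markers kept their calls on Geltrex™ relative to Control when these samples were summed, with adjusted p-values of at most 0.00168. The part of the cell cycle and differentiation markers in the lipid gene differences was not tested.

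**Figure D4:**
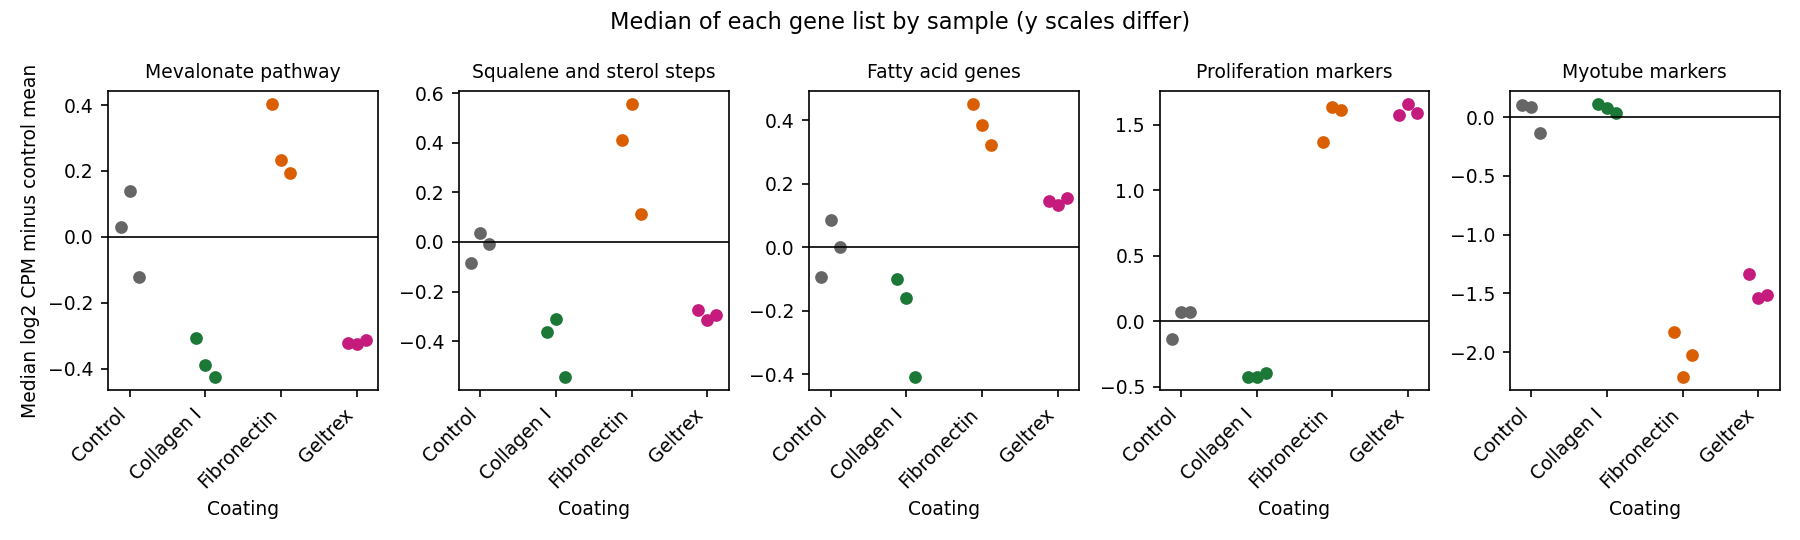
Points show, for each sample, the median over a gene list of log2 CPM minus the Control mean (y axis, scale differs between panels, line at 0) by coating (x axis). Fibronectin and Geltrex™ samples are at similar heights for proliferation markers, at 1.37 to 1.66, but on opposite sides of 0 for mevalonate and sterol genes, and both are above 0 for fatty acid genes.

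Markers of other cells that make lipids were at or near 0. Of 6 adipocyte markers, *Adipoq*, *Cidec*, and *Lep* had at most 2 counts and *Plin1* and *Fabp4* at most 10 counts in any sample, and the summed level of the list, 10.4 to 13.5 CPM in Control and Collagen I and 15.2 to 18.1 CPM on fibronectin and Geltrex™, came mainly from *Pparg*. The macrophage genes *Ptprc* and *Adgre1* had at most 1 count and the 4 macrophage markers together 0.624 to 1.59 CPM, and the 3 endothelial markers together were at most 0.39 CPM. The hepatocyte gene *Alb* had 42 counts in Geltrex™ 1 and 0 counts in the other 11 samples.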

How the data were processed

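RNA-seq was performed in 12 samples of C2C12GFP cells, 3 for each of 4 surfaces, and groups were taken from the sample labels. The deposited values are whole-number counts per gene, which the authors made with Trimmomatic, HISAT2, and featureCounts without normalization. Tool versions, genome build, and the strand setting are not given in the sources used here. Exon lengths and gene overlaps were taken from GENCODE M21, and promoter sequences from RefSeq. No column of the table was left out.

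Counts were tested with edgeR 4.0.16 (R 4.3.3, limma 3.58.1) by the quasi-likelihood method. Genes passed edgeR's expression filter (counts of 10 and totals of 15 as its lower bounds), were normalized by TMM, and were fitted over all 12 samples with 8 residual degrees of freedom. SEs were derived from the log2 fold change and its F statistic. The method was tested on simulated counts first. The 6 comparisons among 4 groups were each adjusted over all 14499 genes. DESeq2 1.42.0, other normalization and filters, a replicate block, fits of 2 groups only, Geltrex™ samples summed into 1, and each sample left out were tried as alternatives. Total counts of 22520404 to 27351766 limit precision for the genes with few counts.

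The 31 genes and the comparison lists were chosen with earlier results of these data known. All 31 genes were accounted for, per-sample values were given for those called in at least 1 comparison, and genes of the other lists were named only where they passed the test, mainly in comparisons with Control, apart from markers at or near 0. Some genes of the further sterol list, and counts over that list, are not reported here.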

Additional observations from a re-analysis of the deposited data

How the results depend on the processing

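Of the 97 calls of the 31 genes over the 6 comparisons, all 97 were kept with RLE normalization, with DESeq2, and with a floor of 10 counts per sample, 95 without a filter on low counts, 87 with only the 2 groups compared, 63 with the Geltrex™ samples summed into 1, and 85 to 96 with 1 sample left out. No called difference changed sign under these alternatives. For Collagen I versus Control, the main counts were 6 of the 31 genes and 162 of all genes. They became 16 and 581 without a filter and 11 and 450 with DESeq2. With only 2 groups they were 2 and 39, and with the Geltrex™ samples summed 2 and 45. The last 2 fits used fewer samples, and the cause of the changes was not tested. Summing the Geltrex™ samples gave 4 of the 31 genes and 2079 of all genes for Geltrex™ versus Control (12 and 4786 otherwise), 4 and 2130 for Collagen I versus Geltrex™ (12 and 5384), and 11 and 703 for fibronectin versus Geltrex™ (21 and 2805). Requiring a fold change of at least 2 left 0 of the 31 genes and 19 of all genes for Collagen I versus Control, 2 and 965 for fibronectin versus Control, 0 and 1325 for Geltrex™ versus Control, 7 and 1226 for Collagen I versus fibronectin, 0 and 1352 for Collagen I versus Geltrex™, and 4 and 577 for fibronectin versus Geltrex™. With 1 sample left out, calls among the 31 genes ranged from 3 to 11 for Collagen I versus Control, 16 to 22 for fibronectin versus Control, 8 to 16 for Geltrex™ versus Control, 23 to 24 for Collagen I versus fibronectin, 10 to 15 for Collagen I versus Geltrex™, and 16 to 22 for fibronectin versus Geltrex™. Calls among all genes then ranged, in the same order, from 44 to 233, 3144 to 5293, 3582 to 5352, 5141 to 6676, 4049 to 5649, and 1717 to 3436. The median log2 fold change of the 31 genes ranged from -0.42 to -0.20, 0.32 to 0.43, -0.13 to -0.04, -0.76 to -0.63, -0.23 to -0.13, and 0.44 to 0.50. In no comparison were the correlations of all 3 same-numbered pairs above 0.1, the limit used, and the samples were taken to share only a number. With the replicate block all 97 calls were kept and 6 were added, for 8, 22, 14, 24, 14, and 21 called genes in the order above. For Collagen I versus fibronectin each sample correlated best with its own number (0.047, 0.169, and 0.225), a hint from the data and not from the design. The similarity of the Geltrex™ samples limits what the calls against them can carry. These samples also enter the spread of the fit used for the other comparisons.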

Other observations

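Glycerolipid synthesis places fatty acids into storage and membrane lipids. Of 16 further fatty acid and glycerolipid genes, 14 were tested. On fibronectin relative to Control, 3 were higher (17.1% of all tested genes were), namely *Lpin1* (0.50 ± 0.11 on the log2 scale), a phosphatidate phosphatase, *Gpam* (0.40 ± 0.10), the first acyltransferase of the route, and *Me1* (0.31 ± 0.08), which supplies NADPH. *Dgat1* (-0.38 ± 0.12), which makes triglycerides, and *Acss2* (-0.31 ± 0.11), which activates acetate, were lower (14.7% of all tested genes were) by edgeR's quasi-likelihood test at an adjusted p of at most 0.05. *Dgat1* lost the call without Control 1, fibronectin 1, or fibronectin 2 (adjusted p of up to 0.162). *Acss2* lost it without any 1 sample other than Collagen I 3 (up to 0.176). On Geltrex™, 5 genes were lower and 1 was higher, against 16.6% and 16.4% of all tested genes. *Acsl3* (-0.79 ± 0.13), an acyl-CoA synthetase of lipid droplets, and *Mlx* (-0.54 ± 0.09) stayed lower with the Geltrex™ samples summed into 1 (adjusted p = 0.0309 and 0.0266). *Lpin1* (-0.45 ± 0.11), *Agpat2* (-0.43 ± 0.12), *Mid1ip1* (-0.35 ± 0.12), and *Dgat2* (0.47 ± 0.17) were not called then, with adjusted p-values of 0.118 to 0.288. On Collagen I, *Acsl3* had a log2 fold change of -0.62 ± 0.13 and lost the call without any 1 sample other than Control 1, fibronectin 2, or fibronectin 3 (adjusted p of up to 0.154).

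Liver X receptors respond to oxysterols and raise genes of cholesterol export. Of 8 genes of this list, 1 was higher and 2 were lower on fibronectin relative to Control (17.1% and 14.7% of all tested genes), and 2 were lower on Geltrex™ (16.6%). *Abca1*, a cholesterol exporter, was at 15.7 ± 3.66 CPM in Control and 22.7 ± 2.76 CPM on fibronectin (SD, n = 3), a log2 fold change of 0.53 ± 0.17 that lost the call without Control 1 or fibronectin 1 (adjusted p of up to 0.111). *Apoe* fell from 12.6 ± 2.46 to 7.24 ± 1.43 CPM on fibronectin, by 0.80 ± 0.16 on the log2 scale. *Nr1h3*, which encodes one of the receptors, was lower on fibronectin as well, but rested on 5 to 6 counts per sample there and 14 to 24 counts in Control, and lost the call without Control 2, fibronectin 1, or fibronectin 2 (up to 0.0633). On Geltrex™, *Mylip*, a ubiquitin ligase, went from 30.3 ± 2.57 to 13.1 ± 1.32 CPM, a log2 fold change of -1.21 ± 0.11, and stayed lower with the Geltrex™ samples summed (adjusted p = 0.000257). *Abcg1* went from 5.85 ± 0.70 to 3.56 ± 0.39 CPM and was not called then (0.0834). *Pparg*, the adipocyte factor that was the only tested gene of its list, was higher on fibronectin (0.57 ± 0.12) and on Geltrex™ (0.48 ± 0.12, adjusted p = 0.0871 with the samples summed) on the log2 scale. The liver genes *Alb* and *Apoa1* had 42 and 9 counts in Geltrex™ 1.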
